A study of Mus musculus with 4 samples.

Results

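The genes described here are the fibroblast growth factor (FGF) ligands, their receptors and the feedback genes that FGF signalling switches on, as measured in the cerebellum of mice in which a Gfap-driven Cre deletes Dicer. They were chosen by gene name on the array: every name starting with Fgf, Spry or Spred, the ETS transcription factors Etv2, Etv3, Etv4, Etv5 and Etv6, and Dusp4, Dusp6 and Il17rd. This gave 47 gene names with 84 probes, of 28090 names and 41174 probes on the array. Of these, 36 genes with 57 probes were tested, because they were well above background in the mutant or the control channel of all 4 arrays. The names Fgfr1op (now Cep43), Fgfr1op2, Spryd3 and Spryd4 fit the rule by spelling only and are given apart.

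The Dicer mutants were mGfap-Cre; Dicer flox/flox mice and the controls were their mGfap-Cre; Dicer +/flox littermates, so the controls carried Cre and 1 floxed Dicer allele too. Dicer cuts microRNA precursors into mature microRNAs, and the Cre was driven by the mouse Gfap promoter, which is active in astroglia and can be active in their precursors. All mice were at postnatal day 30 and of mixed background (mGfap-cre 73.12 crossed with Dicer flox/flox mice). Whole-cerebellum RNA of 4 biologically independent littermate pairs was compared on 2-colour Agilent arrays, 1 pair an array, with the mutant in Cy5 for pairs 1 and 3 and in Cy3 for pairs 2 and 4. Each value below is a log2 ratio of mutant over control after background correction and loess normalization within the array, or, where called a level, a normalized log2 intensity. Levels of different probes are not comparable.

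FGFs are secreted proteins that bind heparan sulfate and activate receptor tyrosine kinases, which signal through Ras and the kinase ERK. ERK in turn induces its own inhibitors, the Sprouty and Spred proteins, the phosphatases Dusp4 and Dusp6 and the membrane protein Il17rd, together with ETS factors such as Etv4 and Etv5, so the levels of these genes are widely used as a readout of the pathway. In the cerebellum FGF signalling patterns the early tissue and guides Bergmann glia, and Fgfr3 is a receptor gene of astroglia.

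No member passed the test with all 4 pairs. Among the 57 tested probes, 0 were higher and 0 lower in mutants at a limma adjusted p under 0.05, where 0.467% and 0.336% of all 25915 tested probes were called higher and lower. At an unadjusted p under 0.05 there were 5 member probes (8.77%), close to the 7.99% of all tested probes. The 57 ratios ran between -0.18 and 0.37 with a median of -0.02 (median of all tested probes -0.01), and 20 lay above 0 and 37 below. Since RNA came from whole tissue, fewer cells of a type and less RNA per cell cannot be told apart in any value here.

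The sign of the ratio was then compared across the pairs. Ratios were above 0 in all 4 pairs for 7 of the 57 member probes (12.3%, against 6.71% of all probes), and below 0 in all 4 pairs for 5 (8.77%, against 7.46%). The 7 were the 3 probes of Fgfr3 and those of Fgfrl1, Dusp6, Fgfr1op and Spryd4. One of the Fgfr3 probes (A_51_P237613) was tested only through the mutant channel, the genotype in which it was higher, so the share of 12.3% is a description and supports nothing. In 3 member probes (5.26%) every mutant level lay above every control level, against 1.84% of all probes, namely in 1 probe each of Fgfr3, Fgfrl1 and Dusp6. No member probe had all mutant levels below all control levels, against 1.66% of all probes. Of the Fgfr3 probes 2 overlap in sequence, so these counts are not of separate transcripts.

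**Figure D1:**
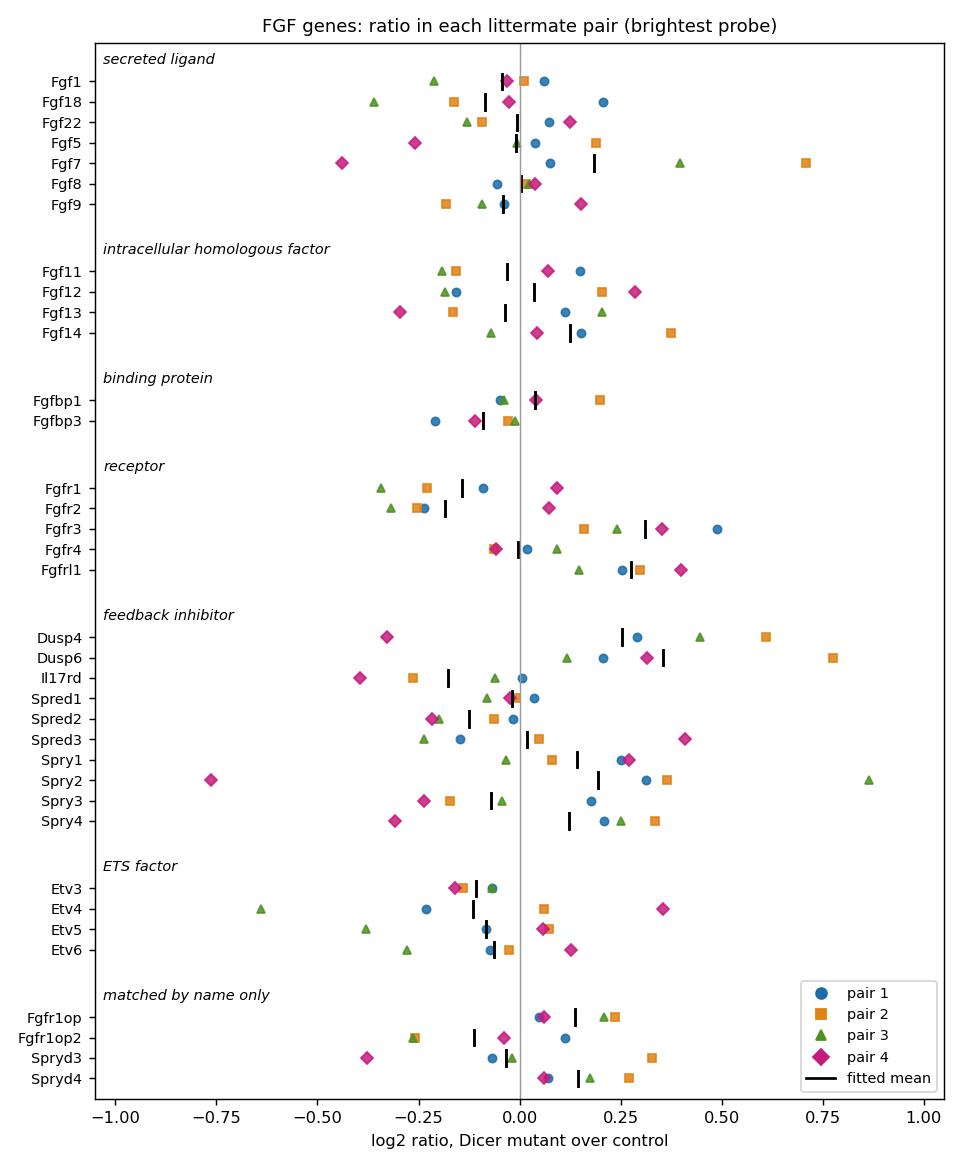
Log2 ratio of Dicer mutant over control (x axis) in each of the 4 littermate pairs (symbols) for the brightest tested probe of each of the 36 genes, grouped by role, with the fitted mean as a bar. Fgfr3, Fgfrl1 and Dusp6 lie above 0 in all 4 pairs, while Dusp4, Spry2, Spry4 and Fgf7 lie above 0 in pairs 1, 2 and 3 and below 0 in pair 4.

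The receptors were the best covered role, with all 14 probes of 5 genes tested, 5 above 0 and 9 below. Some of their probes overlap, which makes them repeat measures of 1 stretch of transcript. The clearest case is a pair of Fgfr1 probes on chromosome 8 (mm9, plus strand), the first at chr8:26684042-26684101 and the second at chr8:26684063-26684122. They are printed here because they read mostly the same bases, so their ratios, given below, are not 2 separate pieces of evidence. Capitals mark the 39 of 60 bases that both hold, within which they differ by A57G, with the base of the first probe given first and positions counted from its 5′ end.
A_51_P109469: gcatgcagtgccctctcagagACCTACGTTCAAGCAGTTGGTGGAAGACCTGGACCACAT
A_52_P668810: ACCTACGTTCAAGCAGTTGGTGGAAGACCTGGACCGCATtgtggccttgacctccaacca

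Fgfr3 gave the smallest p of all members. Its probe A_51_P322906 (chr5:34078899-34078958, mm9) had levels of 10.49, 10.57, 10.49 and 10.84 in the mutants of pairs 1 to 4, against 10.13, 10.19, 10.32 and 10.25 in their control littermates. All 4 mutants were above all 4 controls. The ratios were 0.35, 0.38, 0.17 and 0.59, with a mean of 0.37 (95% confidence interval 0.19 to 0.55, n = 4 pairs, limma adjusted p = 0.155), a fold of 1.295.

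The brightest Fgfr3 probe, A_52_P506516 (chr5:34078922-34078981, mm9), overlaps A_51_P322906 by 37 bases, within which they differ by T28C. A_52_P506516 had levels of 11.60, 11.43, 11.67 and 12.16 in mutants, against 11.11, 11.27, 11.43 and 11.81 in controls. Each mutant was above its own littermate, but the genotypes overlapped, since the control of pair 4 lay above the other 3 mutants. The mean ratio was 0.31 (interval 0.12 to 0.50, adjusted p = 0.255). The third Fgfr3 probe, A_51_P237613, was near background, with levels of 6.69, 6.68, 6.88 and 7.38 in mutants and 6.68, 6.57, 6.88 and 7.12 in controls, and was well above background in the control channel of only 3 of the 4 arrays. Its mean ratio was 0.10 (interval -0.06 to 0.25).

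Fgfrl1, a receptor-like protein that binds FGF but has no kinase domain, had levels of 10.38, 10.38, 10.41 and 10.53 in mutants, against 10.12, 10.08, 10.27 and 10.13 in controls (A_51_P293715, chr5:109135524-109135583, mm9). The mutants did not overlap the controls. Its ratio averaged 0.27 (interval 0.12 to 0.43, adjusted p = 0.221), a fold of 1.21.

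Fgfr1 and Fgfr2, the kinase receptors of neurons, oligodendrocytes and many other cells, had mean ratios below 0 at all 7 probes, though 1 probe of each gene (A_52_P552062 and A_52_P158800) changed sign in 1 alternative setting. The 2 overlapping Fgfr1 probes printed above had ratios of -0.04, -0.30, -0.42 and 0.08 (A_51_P109469) and of -0.09, -0.23, -0.34 and 0.09 (A_52_P668810), so they ranked the pairs alike. Their means were -0.17 (interval -0.42 to 0.08) and -0.14 (interval -0.35 to 0.07). The other 2 Fgfr1 probes had means of -0.16 each (A_52_P136162 and A_52_P552062), and A_52_P136162 was below 0 in every pair. Fgfr2, at its brightest probe A_52_P363110, had ratios of -0.24, -0.25, -0.32 and 0.07, with a mean of -0.18 (interval -0.38 to 0.01, adjusted p = 0.656). The remaining Fgfr2 probes averaged -0.09 and -0.06. Fgfr4, a receptor scarce in adult brain, had 3 dim probes with means of 0.07, 0.00 and 0.00, and the brightest, A_52_P144363, had ratios of 0.02, -0.06, 0.09 and -0.06. The probe with the mean of 0.07, A_51_P408100, was well above background in the control channel of only 2 of the 4 arrays. That probe was thus tested only through the mutant channel, the genotype in which it was higher.

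Probes spotted many times on each array show the error of a single spot, which is technical, beside the spread between littermate pairs. Since each pair had its own array, that spread holds array, labelling and dye differences as well as differences between animals. The Fgfr1 probe A_51_P109469 had 10 spots an array. The SD between its spots was 0.04, 0.04, 0.09 and 0.07 within pairs 1, 2, 3 and 4, smaller than the SD of 0.23 between the 4 pair means. For a 10-spot Fgf8 probe near background the SD between spots was 0.07, 0.08, 0.13 and 0.11, and the pair means of -0.06, 0.02, 0.02 and 0.04 stood beside single spots on both sides of 0 on every array. The 10-spot Fgfr2 probe A_51_P432403 had spot SDs of 0.04, 0.08, 0.06 and 0.05 and pair means of -0.01, -0.05, -0.04 and -0.16.

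**Figure D2:**
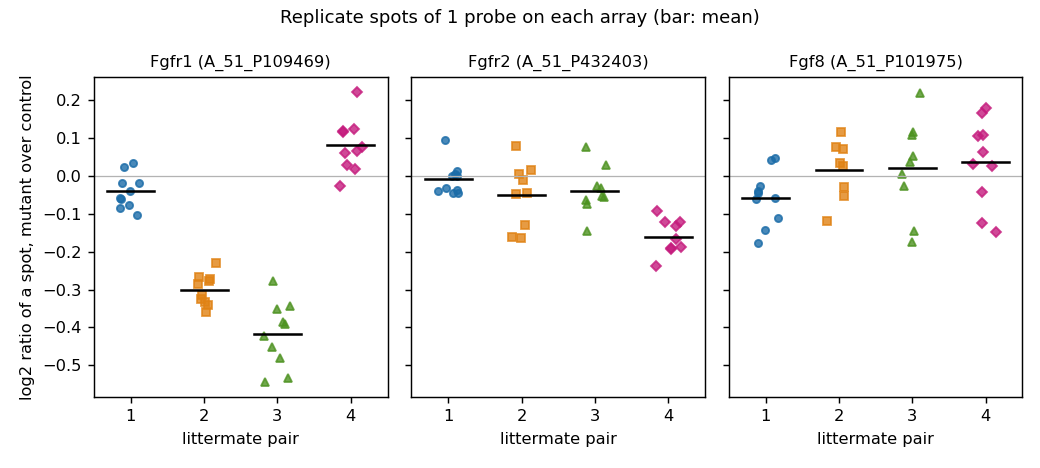
Log2 ratio of mutant over control (y axis) of each used spot of the probes of Fgfr1, Fgfr2 and Fgf8 spotted 10 times on every array, by littermate pair (x axis), with the mean of the spots as a bar. The Fgfr1 spots of pairs 2 and 3 lie all below 0, those of pair 4 mostly above, and the spots of 1 array stay close together.

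**Figure D3:**
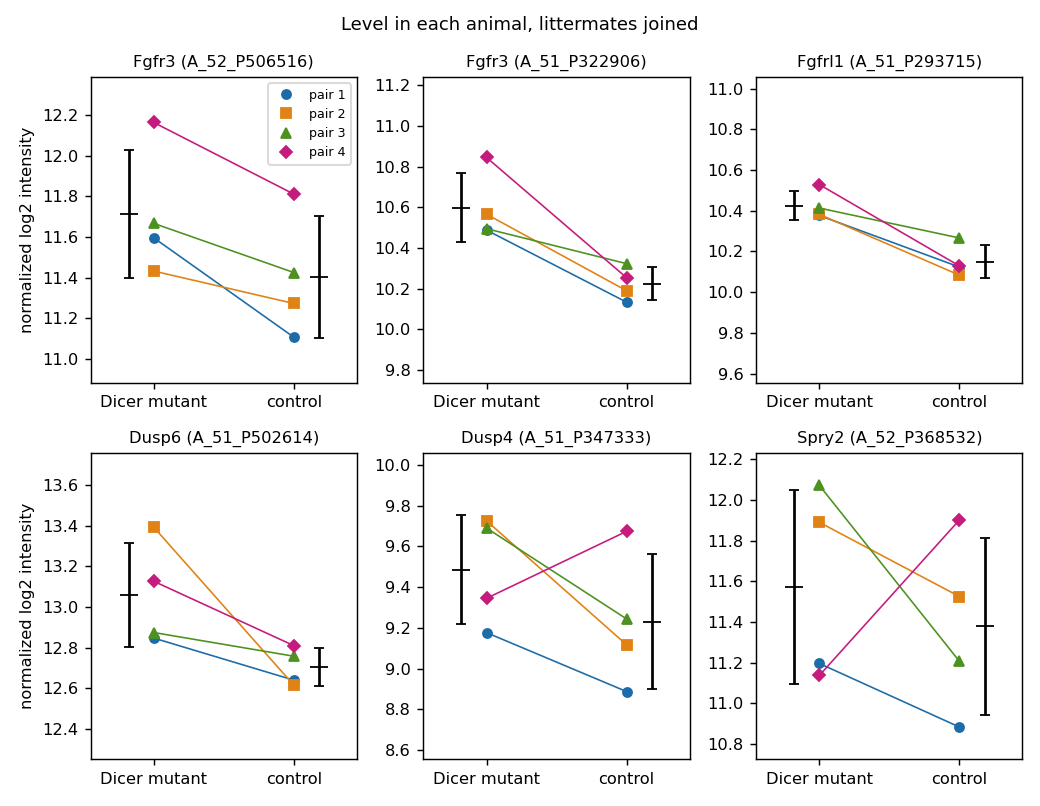
Normalized log2 intensity (y axis, spanning the same 1.5 units in each panel) in each Dicer mutant (left) and its control littermate (right), joined by a line, with the mean and SD of 4 animals beside them. In the Fgfr3 (A_51_P322906), Fgfrl1 and Dusp6 panels the genotypes do not overlap, and in the Dusp4 and Spry2 panels the line of pair 4 runs against the others.

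Of 14 paracrine ligand genes with 19 probes, 7 genes with 8 probes were tested, all 8 of them well above background in both animals of every pair, and 3 probes lay above 0 and 5 below. Fgf9, a ligand that neurons release and that acts on Fgfr2 and Fgfr3, had ratios of -0.04, -0.18, -0.09 and 0.15 and a mean of -0.04 (interval -0.23 to 0.15). Fgf1, which lacks a signal peptide, gave 0.06, 0.01, -0.21 and -0.03 at its brightest probe and 0.15, 0.43, -0.02 and -0.02 at the other. Fgf18, a growth factor of bone and lung that is also made in brain, gave 0.21, -0.16, -0.36 and -0.03. In none of these did the pairs hold 1 direction.

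Fgf5, known as a regulator of hair growth, gave 0.04, 0.19, -0.01 and -0.26. Fgf22, which organizes presynaptic terminals, gave 0.07, -0.09, -0.13 and 0.13, and Fgf8, the signal of the embryonic midbrain-hindbrain organizer, had the pair means given with its spots, all close to 0. Fgf7, a ligand of the epithelial splice form of Fgfr2, differed more between pairs than most members, at 0.07, 0.71, 0.40 and -0.44. Its mean of 0.19 had an interval of -0.29 to 0.66.

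The other 7 paracrine ligands, Fgf2, Fgf3, Fgf6, Fgf10, Fgf16, Fgf17 and Fgf20, had no tested probe. Fgf2, a ligand of astroglia, was well above background in 2 mutant and 1 control channels at best, and Fgf10, a ligand of branching organs, in 2 mutant and 3 control channels. The endocrine ligands Fgf15, Fgf21 and Fgf23, hormones of the gut, liver and bone, had 5 probes, none of which was tested. Altogether 15 member probes were well above background on no array in either genotype, which bounds only what these probes could detect.

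The intracellular FGF homologous factors Fgf11, Fgf12, Fgf13 and Fgf14 are not ligands but bind voltage-gated sodium channels in neurons. All 4 genes were tested, with 8 probes, 2 above 0 and 6 below, and a median ratio of -0.01. Fgf14, whose human counterpart is mutated in a spinocerebellar ataxia, had ratios of 0.15, 0.38, -0.07 and 0.04 at its brightest probe, with a mean of 0.12 (interval -0.08 to 0.33), and a mean of -0.01 at its other tested probe. Fgf11 gave 0.15, -0.16, -0.19 and 0.07.

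At their brightest probes Fgf12 and Fgf13 followed the dye, while the other tested probe of each gene did not. Fgf12 had -0.16, 0.20, -0.18 and 0.28 and Fgf13 had 0.11, -0.16, 0.20 and -0.30, so the sign changed with the dye of the mutant on every array. The fitted dye effects were -0.21 and 0.19, larger than the genotype estimates of 0.04 (interval -0.11 to 0.18) and -0.04 (interval -0.19 to 0.12). Among members, 12 probes (21.1%) followed the dye in this way, against 16.9% of all tested probes, and the median absolute dye effect was 0.06 in members and 0.07 in all. Etv4, Etv5, Spred3 and Fgfbp1 were among the 12.

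The carrier proteins Fgfbp1 and Fgfbp3, which release FGFs from heparan sulfate, had 1 tested probe each. Fgfbp1 gave -0.05, 0.20, -0.04 and 0.04. Fgfbp3 was below 0 in every pair, at -0.21, -0.03, -0.01 and -0.11, with a mean of -0.09 (interval -0.26 to 0.08).

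The feedback inhibitors, the genes that ERK induces and that then restrain it, were all tested: 10 genes and 14 of 19 probes, with 6 probes above 0 and 8 below. Their median ratio was -0.02, and by pair it was 0.09, 0.02, -0.04 and -0.23. Pair 4 thus gave the lowest median of this role.

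Dusp6, a cytoplasmic phosphatase that removes the activating phosphates of ERK, had levels of 12.85, 13.39, 12.87 and 13.13 in mutants, against 12.64, 12.62, 12.76 and 12.81 in controls (A_51_P502614, chr10:98729985-98730044, mm9). Every mutant lay above every control, though the lowest mutant (12.85, pair 1) was close to the highest control (12.81, pair 4). Within pairs 1 and 3 the mutant was above its own littermate by 0.21 and 0.12. The ratio averaged 0.35 (interval 0.13 to 0.58, adjusted p = 0.293), and that of pair 2, 0.78, was the highest. Dusp4, a nuclear phosphatase of the same family, had levels of 9.18, 9.73, 9.69 and 9.34 in mutants, against 8.89, 9.12, 9.24 and 9.67 in controls. The mutant was higher in pairs 1, 2 and 3, by 0.29, 0.61 and 0.45, and lower in pair 4, with a ratio of -0.33, so the mean of 0.25 had an interval of -0.13 to 0.64 (adjusted p = 0.831).

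The Sprouty genes, inhibitors of Ras signalling at the membrane, did not share a pattern. Spry2 had levels of 11.20, 11.89, 12.07 and 11.14 in mutants, against 10.88, 11.53, 11.21 and 11.90 in controls at its brightest probe (A_52_P368532). Its ratios of 0.31, 0.36, 0.86 and -0.76 had an SD of 0.69, and the mean of 0.19 an interval of -0.30 to 0.69. The second Spry2 probe, dim but well above background in both channels of all 4 arrays, gave 0.07, -0.06, 0.11 and -0.33, with a mean of -0.05. Spry4, at a probe about as dim, gave 0.21, 0.34, 0.25 and -0.31, again with pair 4 opposite. Spry1 gave 0.25, 0.08, -0.03 and 0.27, and Spry3 gave 0.18, -0.17, -0.04 and -0.24.

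The Spred proteins are Sprouty relatives that hold Raf in check. Spred1 gave 0.04, -0.01, -0.08 and -0.02 at its brightest probe (mean -0.02, interval -0.17 to 0.13). Its other tested probe had a mean of -0.14. Spred2 was below 0 in every pair at its brightest probe, at -0.02, -0.06, -0.20 and -0.22. The other tested Spred2 probe was at 0.26 in pair 2, with a mean of -0.02. Spred3 gave -0.15, 0.05, -0.24 and 0.41. Il17rd, also called Sef, an inhibitor at the receptor, gave 0.01, -0.26, -0.06 and -0.40 at its brightest probe, with a mean of -0.18 (interval -0.33 to -0.02, adjusted p = 0.523), and a mean of -0.02 at its other tested probe.

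The ETS factors had 4 tested genes and 5 probes, and all 5 ratios were below 0, with a median of -0.08. None was called, and the second Etv6 probe changed sign in 7 of the 16 alternative settings that tested it. Etv4, a target that rises with FGF signalling, had ratios of -0.23, 0.06, -0.64 and 0.35, and its dye effect of -0.32 was larger than its mean of -0.11 (interval -0.35 to 0.12). Etv5, its close relative, gave -0.08, 0.07, -0.38 and 0.06. The repressors Etv3 and Etv6 gave -0.07, -0.14, -0.07 and -0.16 in the first case and -0.07, -0.03, -0.28 and 0.13 in the second. Etv2, a factor of blood vessel precursors, had no tested probe.

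At their brightest probes the genes matched by name only gave means of 0.14 for Fgfr1op, a centrosome protein, -0.11 for Fgfr1op2, -0.03 for Spryd3 and 0.14 for Spryd4. Their pair values were 0.05, 0.23, 0.21 and 0.06 for Fgfr1op, and 0.11, -0.26, -0.27 and -0.04 for Fgfr1op2. The other tested probes of Fgfr1op and Fgfr1op2 had means of 0.015 and -0.0056. Spryd3 had -0.07, 0.33, -0.02 and -0.38, and Spryd4 had 0.07, 0.27, 0.17 and 0.06. None of them is an FGF ligand, a receptor or one of the feedback inhibitors.

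Pair 4 stood apart in the array as a whole. It was the only pair of its sign for 21.3% of all probes and for 11 member probes (19.3%), where each of the other pairs was alone for 6.61% to 10.3% of all probes. Among the members it was alone below 0 for 5 probes (8.77%, against 9.48% of all probes), among them those of Dusp4, Spry2, Spry4 and Fgf7. Marker genes of neurons also differed by pair: the median ratio of the granule neuron markers was 0.14, 0.05, -0.04 and -0.13 over pairs 1 to 4 and that of the Purkinje neuron markers 0.10, -0.01, 0.17 and -0.20. Their part in the values of pair 4 was not tested.

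Without pair 4, 2 of the 57 member probes were called higher and 0 lower, where 0.909% of all 25972 probes tested were called higher and 0.608% lower. They were Dusp6, at 0.47 (adjusted p = 0.043), and Dusp4, at 0.49 (adjusted p = 0.0431). Spry2 and Fgf7 reached 0.48 and 0.47 with adjusted p-values of 0.137 and 0.075, Spry4 reached 0.28 (adjusted p = 0.142), and the receptor probes with the smallest p in 4 pairs were at 0.32 and 0.26 (Fgfr3) and 0.25 (Fgfrl1). Other receptor probes moved by over 1.5 times without a call, among them Fgfr1 to -0.34 (A_52_P552062), -0.27 (A_51_P109469) and -0.22 (A_52_P668810), Fgfr2 to -0.22 (A_52_P158800), and the dim Fgfr3 probe A_51_P237613 to 0.06. The share of member probes at an unadjusted p under 0.05 was 28.1%, against 17.6% of all probes. These 16 probes include both overlapping Fgfr1 probes, both overlapping Fgfr3 probes and Spryd4, which matched by name only. The member share was 3.33% against 4.9% without pair 1, and 7.02% against 3.93% without pair 3. Leaving out pair 2 gave a member share close to the 10.1% of all probes. In the fit without pair 4, pair 2 is the only array with the mutant in Cy3. With dye as a term, pair 2 then weighs as much as pairs 1 and 3 together, and it holds the highest ratios of both Dusp6 and Dusp4. Without pair 2 in place of pair 4, Dusp6 was at 0.24 (limma adjusted p = 0.302) and Dusp4 at 0.02 (adjusted p = 0.973). In that fit pair 4, with a Dusp4 ratio of -0.33, is the only array with the mutant in Cy3. Pair 4 then weighs as much as pairs 1 and 3 together, so the 2 fits differ in the pair that weighs most.

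**Figure D4:**
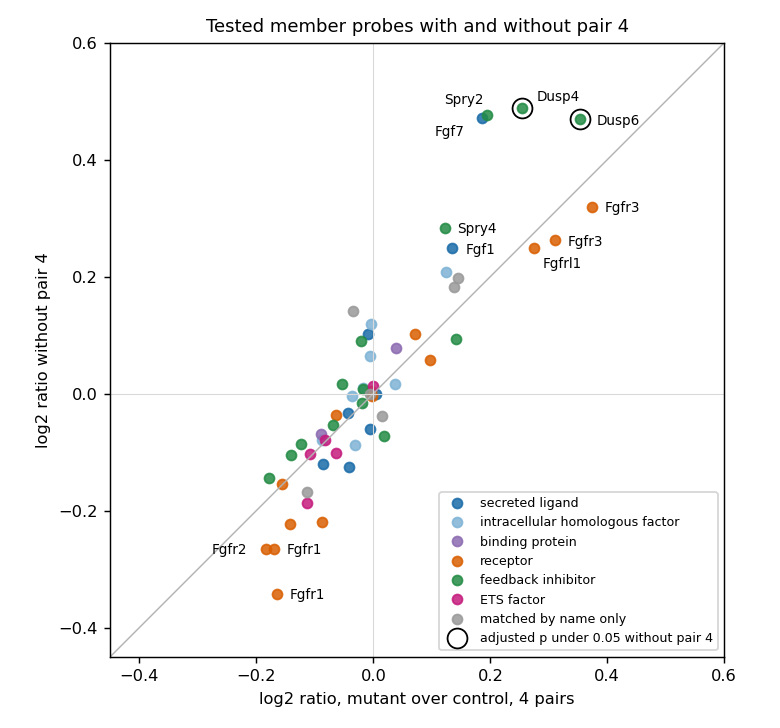
Log2 ratio of mutant over control of each of the 57 tested member probes with 4 pairs (x axis) and without pair 4 (y axis), coloured by role, with the line of equal values. Dusp6 and Dusp4 (ringed) pass an adjusted p of 0.05 only without pair 4, and Dusp4, Spry2, Spry4 and Fgf7 lie well above the line.

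A promoter feature was compared over members because ETS factors bind the core CGGAAG. Of the 250 bases before the annotated starts (RefSeq, GRCm38.p6), 8 of 37 windows of tested members (21.6%, 28 genes with a window) held CGGAAG on either strand, against 13.6% of 32851 windows of all genes. The windows of Fgfrl1 and Dusp6 held it and the 2 of Fgfr3 did not. Both are printed on the plus strand with the match in capitals, as 2 of the 3 genes whose genotypes did not overlap: Fgfrl1 at chr5:108693979-108694228 and Dusp6 at chr10:99262981-99263230. A match of these letters is a description and not a binding site.
Fgfrl1 promoter: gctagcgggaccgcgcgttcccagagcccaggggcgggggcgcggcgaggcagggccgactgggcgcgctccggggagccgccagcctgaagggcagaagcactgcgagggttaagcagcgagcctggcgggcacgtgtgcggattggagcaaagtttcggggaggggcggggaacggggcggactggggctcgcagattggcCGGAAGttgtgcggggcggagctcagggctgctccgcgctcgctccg
Dusp6 promoter: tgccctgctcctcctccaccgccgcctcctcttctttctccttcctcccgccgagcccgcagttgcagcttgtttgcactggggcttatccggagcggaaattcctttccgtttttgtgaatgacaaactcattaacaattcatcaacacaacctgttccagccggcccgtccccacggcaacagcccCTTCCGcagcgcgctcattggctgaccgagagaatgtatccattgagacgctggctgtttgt

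The rest of the pathway was read from lists of other genes, at the brightest probe of each. Of 22 signal transduction genes (adaptors, Ras, Raf and the kinases down to ERK), all were tested and none called, with 11 above 0 and 11 below and a median of -0.01. The smallest p was that of Rps6ka1, a kinase activated by ERK, at -0.27 and below 0 in all 4 pairs (adjusted p = 0.262), followed by the adaptor Gab1 at 0.14 (adjusted p = 0.75). Of 21 tested genes of coreceptors and heparan sulfate, none was called, with 12 above 0 and 9 below.

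In that list Sulf1, an enzyme that trims the sulfate groups FGF needs on heparan sulfate, had ratios of -0.65, -1.09, -0.14 and -0.69, a mean of -0.64 (adjusted p = 0.122, and -0.74 with adjusted p = 0.0388 without pair 4). Sdc4, a membrane proteoglycan, had -0.12, -1.25, 0.29 and -1.41, far lower on both arrays with the mutant in Cy3, with a mean of -0.62 (adjusted p = 0.0621). The FGF coreceptor Kl gave 0.13, -0.59, 0.49 and 0.59, and the choroid plexus markers had pair medians of 0.02, -0.58, 0.38 and 0.56. How far choroid plexus in the samples set the Kl ratio was not tested.

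Among 15 tested genes of other ERK-responsive genes and phosphatases, 1 was higher and 0 lower. Ccnd1, which drives cells into S phase, had ratios of 1.20, 1.00, 0.65 and 1.04 and a mean level of 11.72 in mutants, against 10.74 in controls (fold 1.966, adjusted p = 0.0251). It was higher in 4 of 4 pairs. The call was lost without pair 1 (0.84, adjusted p = 0.0601), with the scanner's processed signals (1.01, adjusted p = 0.0654), with scaling between arrays (adjusted p = 0.107) and with no replicate block (adjusted p = 0.0548). The phosphatase gene Dusp1 had -0.54 (adjusted p = 0.235), and the immediate early genes Egr1 and Fos had 0.04 and -0.28. Over this list 7 genes lay above 0 and 8 below.

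Markers of cell types moved beside these values. Of 13 tested astroglial markers, 3 were higher and 3 lower: Aldh1l1 (1.50), Gfap (1.47) and Fabp7 (1.07) against S100b (-0.55), Aqp4 (-0.54) and Slc1a2 (-0.57). Of these 6, Aldh1l1 was called in every setting tried, Gfap lost its call with scaling between arrays (adjusted p = 0.0818), and Fabp7 lost its call without pair 3 (adjusted p = 0.0654) and with no replicate block (adjusted p = 0.0975). The lower calls of S100b, Aqp4 and Slc1a2 were all lost without pair 1, without pair 3, with outlier flags applied after normexp, with processed signals and with no replicate block. Those of S100b and Slc1a2 were also lost with scaling between arrays, and that of Aqp4 with no dye term (adjusted p between 0.0542 and 0.251 over these losses). Fgfr3 and Fgfrl1 were thus measured in tissue whose astroglial markers changed in both directions, and the part of astroglial number in their ratios was not tested. The 9 oligodendrocyte markers were all below 0 with a median of -0.26 and none was called (smallest limma p, Cldn11 at -0.34, adjusted p = 0.188, and Opalin at -0.40, adjusted p = 0.231). Their pair medians were -0.29, -0.12, -0.53 and -0.20. Fgfr1 and Fgfr2 had mean ratios below 0 too, and their brightest probes lay above 0 in pair 4 (0.09 and 0.07). Their other probes lay on both sides of 0 in pair 4. The values were 0.08, 0.14 and -0.16 for Fgfr1, and 0.44 and -0.16 for Fgfr2. The part of oligodendrocytes in the ratios of Fgfr1 and Fgfr2 was not tested.

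The 7 markers of meninges had pair medians of 0.84, 0.19, 0.14 and 0.20, and the smallest p-values were those of Lum (0.54, adjusted p = 0.158) and Dcn (0.51, adjusted p = 0.256), while Col1a1 had the largest ratio (0.64). That ratio came mostly from pair 1, as the Col1a1 pair values were 2.02, 0.19, 0.16 and 0.20. No marker of endothelium, microglia, choroid plexus, granule neurons or Purkinje neurons was called. In the lists other than microglia the smallest p-values belonged to Cldn5 (-0.15) and Slco1a4 (-0.09), Kcne2 (0.19) and Otx2 (0.07), Slc17a7 (-0.19) and Zic1 (0.19), and Itpr1 (0.15) and Slc1a6 (0.13), while the microglial marker Csf1r had -0.14. Of 8 genes of hindbrain and midbrain neurons outside the cerebellum, 2 were tested, Th at -0.06 and Hoxb6 at 0.01.

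In the series as a whole, between 26291 and 28907 of the 41174 probes were well above background in a channel, and the number of arrays limits the precision. Dicer1 itself was measured by 2 probes with ratios of 0.03 and -0.07 (SD 0.21 and 0.18 over 4 pairs, adjusted p = 0.976 and 0.928). Where these probes lie relative to the floxed part was not established, so they do not check the genotype labels.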

How the data were processed

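Cerebellum RNA (500 ng a channel, linear amplification, per the labels) of 4 littermate pairs at postnatal day 30 was hybridised to 4 arrays on 1 slide. The deposited files hold linear intensities of spots and their surroundings from Agilent Feature Extraction (version 10.5.1.1), and place probes on mm9, per the file headers. They also hold log10 ratios, and the deposited value table repeats these as mutant over control (largest difference 4.84e-06).

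Mean spot intensities were background-corrected with normexp (offset 50) and normalized by loess (span 0.3) within arrays in limma 3.58.1 (R 4.3.3, data.table version 1.17.8, statmod version 1.5.0). The offset shrinks ratios of dim probes. Outlier-flagged spots were set missing and spots of a probe averaged. Probes well above background in 1 genotype on all 4 arrays, with at least 3 values, were tested with limma (lmFit, eBayes), dye as a term, and Benjamini-Hochberg adjustment over all 25915 probes, and called at an adjusted p under 0.05. The unit tested was the probe. The code was tested on simulated data. Littermates shared an array, so every ratio is within a pair.

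The members and lists were chosen with earlier results of these data known. Pair values are given for the brightest probe of each tested member gene. From other lists the called genes and the 2 of smallest p are named (1 of them is not reported here), while Kl, Egr1, Fos and Col1a1 were added after their values were seen, as were the second probes of some genes. Alternatives changed the background, signal, normalization, dye term, filter, variance model, unit, pairing and replicates. The motif windows came from RefSeq, and 73 member probes matched a current symbol by accession.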

Additional observations from a re-analysis of the deposited data

How the results depend on the processing

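Across 17 alternative settings, 0 member probes were called lower in each, and 0 were called higher in each but one: without replicate 4 there were 2, Dusp6 and Dusp4, so leaving out 1 replicate gave 0 to 2. The smallest adjusted p of a member was 0.0759 without replicate 2, 0.822 without replicate 1 and 0.543 without replicate 3. With no replicate block, where the channels were tested as unpaired, 0 members were called and the smallest adjusted p was 0.261. Of the 57 ratios, 25 kept their sign in all settings that tested them and 32 changed it in at least 1. The Fgfr3 probe A_51_P322906 lay between 0.20 and 0.43, Fgfrl1 between 0.10 and 0.31, and Dusp6 between 0.16 and 0.47, each lowest with median centring. Over the whole array, 121 probes were called higher and 87 lower. These counts were 49 and 28 with outlier flags applied after normexp, 84 and 45 with the scanner's processed signals or the value table, 85 and 41 with scaling between arrays, and 96 and 64 with no replicate block. They were 50 and 15, 178 and 154, 62 and 26, and 236 and 158 without replicates 1, 2, 3 and 4. Median centring in place of loess moved the median of all probes to -0.12. It gave 151 higher and 323 lower calls, so their split turned. In that setting 15 member ratios moved by over 1 SD of the pairs, a count that includes the shift of all probes. The member of smallest p became Fgfr2 (limma adjusted p = 0.316). With processed signals, which have no offset, 3 dim members moved: Fgfr4 (A_51_P408100) to 0.44, Fgfr1 (A_52_P136162) to -0.30 and the second Fgf1 probe (A_52_P538673) to 0.42. This Fgfr4 probe was tested only through the mutant channel, the genotype in which it was higher. The loss of 1 array leaves a fit with fewer samples; the other causes were not tested. Dixon's test on the 4 ratios of each of the 57 member probes found 0 with a pair apart.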
